A study of Mus musculus with 6 samples.

Results

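The natriuretic peptide system was examined in the quadriceps of AR97Q mice after running exercise. It is represented here by 8 genes, namely the peptides Nppa, Nppb and Nppc, the receptors Npr1, Npr2 and Npr3 and the cyclic GMP-dependent protein kinases Prkg1 and Prkg2. They were chosen by name, as array probes whose transcript maps to one of these symbols, and the choice of this system was made with the values of the same comparison known. The 8 genes had 14 probes among the 56583 probes with a value on every array, and 9 of the 14 were bright enough to be tested. These 9 probes stand for 7 genes among 25005 genes and transcripts tested. Nppb was the gene without a tested probe.

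All mice were male, were sampled at 9 weeks of age and carried the human androgen receptor gene with an expanded CAG repeat on a C57BL/6J background, which models the neuromuscular disease spinal and bulbar muscular atrophy. The exercise group ran on a forced wheel at low to moderate intensity from a presymptomatic age and was sampled the day after its last bout. The sedentary group did not run. Each group had 3 mice with 1 array each, and no array of a wild-type mouse was analysed here, so every comparison is between exercised and sedentary carriers of the transgene. The promoter that drives the transgene is not given in the sources used here.

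Natriuretic peptides are small hormones that act through membrane receptors. Npr1, the receptor for the atrial peptide (Nppa) and the B-type peptide (Nppb), and Npr2, the receptor for the C-type peptide (Nppc), are guanylyl cyclases that make cyclic GMP when the peptide binds. Npr3 has no cyclase domain and takes up the peptides for breakdown, for which it is called the clearance receptor. Cyclic GMP activates the kinases Prkg1 and Prkg2, which phosphorylate proteins that control muscle tone and calcium release. The system is best known for the regulation of blood pressure, of fat breakdown and, for the C-type peptide, of bone growth and of the vessel wall.

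Each value is the brightness of an array spot and not a number of molecules. The authors' software subtracted the background from each spot, and the resulting processed signal was set on the log2 scale relative to the 75th percentile of its own array. A value of 0 therefore means a signal at that percentile, and a difference of 1 means a doubling relative to it. Differences were taken within a probe across arrays, since the level of one probe cannot be set exactly against that of another. Levels of different probes were used to pick the brightest probe or gene and to sum marker lists. Such sums depend mostly on the brightest probes. Before scaling, the 75th percentile ranged from 251 to 257 with exercise and from 310 to 384 without, and this gap moved differences by -0.47 when no scaling was applied. The 6 arrays were on 1 slide. The 3 exercise arrays and sedentary array 1 shared one strip of it, and sedentary arrays 2 and 3 were on the other. The share of probes well above background was 54.6 to 59.9% per array, and saturation did not occur.

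The upstream sequences of Nppc and Npr3 are shown because these are the members with the clearest differences between the groups. They are the RefSeq sequences of the 150 bases before the annotated start in GRCm38.p6, on the strand of the gene and written 5′ to 3′, with motif matches in capitals. The Nppc sequence lies at chr1:86670574-86670723 and the Npr3 sequence at chr15:11907372-11907521, both on the minus strand.
Nppc: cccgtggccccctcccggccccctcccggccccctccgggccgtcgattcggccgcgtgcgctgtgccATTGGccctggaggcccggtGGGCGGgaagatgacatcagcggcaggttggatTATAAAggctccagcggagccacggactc
Npr3: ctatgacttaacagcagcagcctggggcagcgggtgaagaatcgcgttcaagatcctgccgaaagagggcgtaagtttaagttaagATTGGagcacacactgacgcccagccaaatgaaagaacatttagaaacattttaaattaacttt
The motifs were searched on both strands of the window from 250 bases before to 50 after the start. The core promoter motifs were TATAAA (the TATA box), the GC box with the letters GGGCGG, and the CCAAT box. The cyclic AMP response element was searched as TGACGTCA. The AP-1 site was searched as TGANTCA. The Nppc window was 69.3% G and C and held TATAAA starting at position -29, GGGCGG at -62 and CCAAT on the opposite strand at -82, written ATTGG in the sequence above. The Npr3 window was 39% G and C, opened with an AAG repeat outside the printed stretch, and held CCAAT on the opposite strand at -64 and none of the other motifs. Of 32851 RefSeq windows of this length, 13.6% held TATAAA, 35.7% GGGCGG and 37.4% CCAAT, and the median content of G and C was 52.7%. TATAAA also occurred in the windows of the other peptide genes, at -9 in Nppa and at -31 in Nppb, which are neighbours on chromosome 4. It occurred in none of the receptor or kinase windows, and Prkg2 had no entry. A match describes the letters and is no evidence that a factor binds there.

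Among the members, Nppc had the largest difference and was brighter on every exercise array. Npr3 was dimmer on every exercise array. Both Prkg1 probes and the tested Prkg2 probe were brighter on every exercise array by a smaller margin that depended on the scaling. Npr1, Npr2 and Nppa overlapped between the groups. By limma with Benjamini-Hochberg adjustment over all 25005 genes and transcripts, 2 of the 7 tested members passed an adjusted p of 0.05, Nppc as higher and Npr3 as lower with exercise. Over everything tested, 4406 (17.6%) passed, 2867 of them (11.5%) as higher and 1539 (6.15%) as lower. The groups did not overlap in 4 of the 7 members, as in 43.2% of everything tested (25.0% with exercise above and 18.2% below). The members were chosen with this contrast known, so their values are given below as a description, with intervals and without a p-value for a single member.

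**Figure D1:**
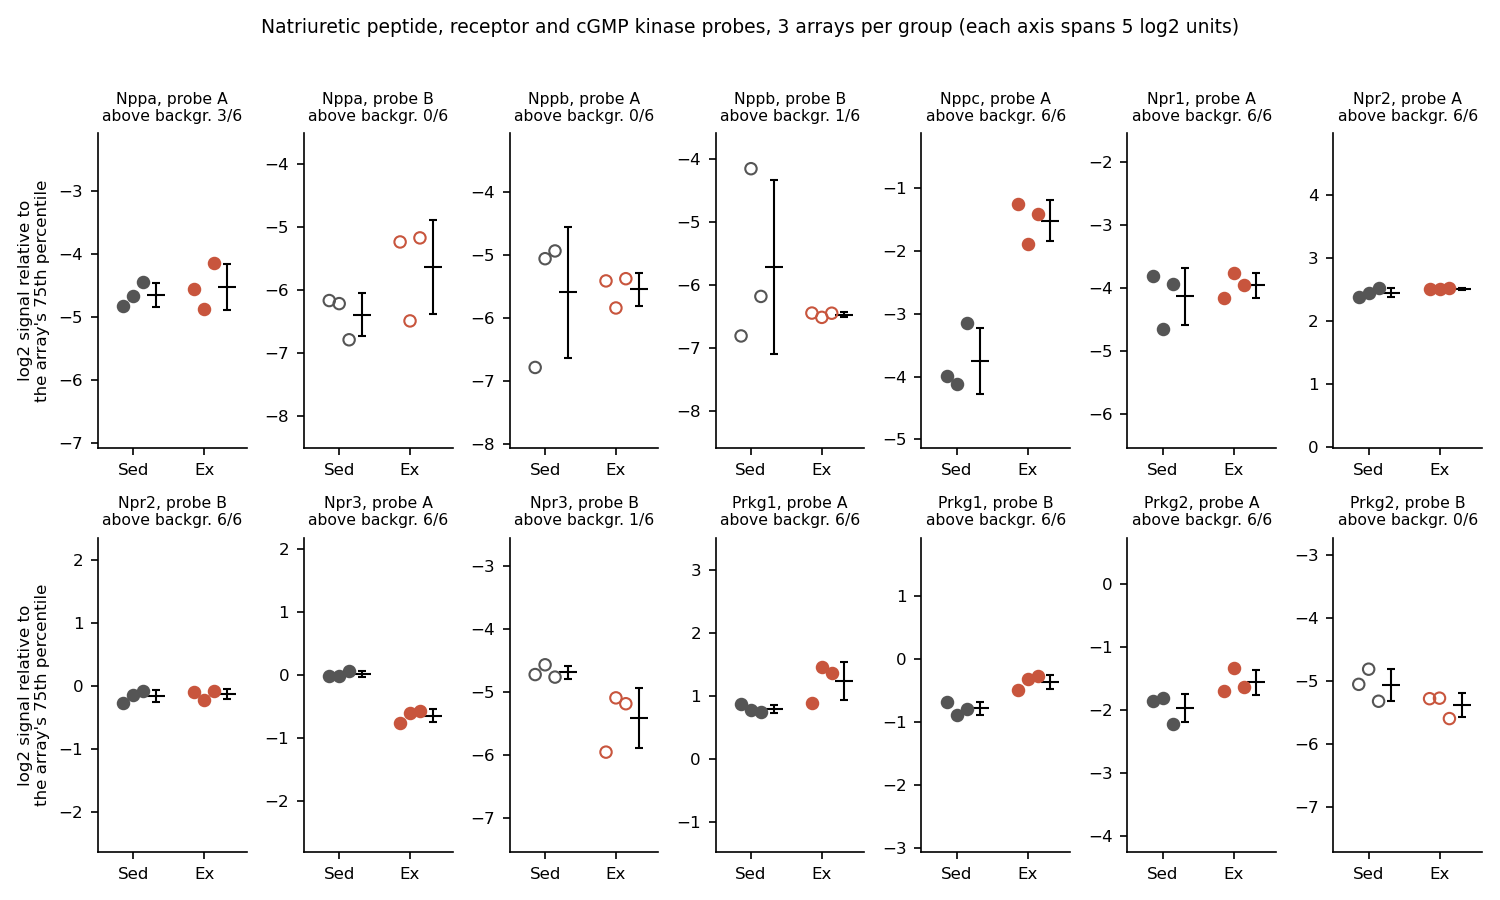
Signal of every probe of the 8 genes on every array. Each panel is 1 probe, the y axis is the log2 signal relative to the array's 75th percentile and spans 5 log2 units, points are arrays (Sed, sedentary; Ex, exercise), bars are the mean and SD of 3 arrays, filled points are probes that were tested, open points are probes that were not, and the title gives the arrays of 6 on which the probe was well above background. The exercise arrays lie above the sedentary arrays for Nppc (-1.89 to -1.26 against -4.12 to -3.15) and below them for Npr3 probe A (-0.76 to -0.57 against -0.02 to 0.07).

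Nppc encodes the C-type natriuretic peptide, which acts locally through Npr2. Its probe (A_55_P2092671) was well above background on all 6 arrays. The scaled log2 signal was -1.26, -1.89 and -1.42 on exercise arrays 1 to 3 and -3.99, -4.12 and -3.15 on sedentary arrays 1 to 3. Every exercise array was above every sedentary array, and sedentary array 3 was the closest of its group to the exercise arrays. The exercise mean was -1.52 ± 0.33 (SD, n = 3) and the sedentary mean -3.75 ± 0.53 (SD, n = 3). The difference was 2.23 on the log2 scale (SE 0.30, 95% interval 1.51 to 2.95), a 4.69-fold higher signal with exercise. It ranked 24 of 25005 from the highest difference down.

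The groups were also separated for Nppc before scaling. The processed signal before scaling was 107, 69.3 and 93.4 on the exercise arrays and 19.6, 21.3 and 43.2 on the sedentary arrays. The lowest signal that counted as well above background was at most 13.4 on any array. Over 20 alternative settings the difference stayed between 1.17 and 2.53. The lowest value came from normexp background correction with an offset of 50, which compresses dim signals by its construction. Against sedentary array 1 alone, which shared the strip with the exercise arrays, the difference was 2.46, and Nppc did not pass the threshold there or with the strip as a block. Nppc passed the threshold without sedentary array 1 (2.11). With any other array left out, at most 1 of everything tested passed, and Nppc missed the threshold (2.05 to 2.53).

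Nppa encodes the atrial natriuretic peptide, the circulating hormone of the heart atria. Its tested probe (A_52_P580582) was well above background on 1 of 3 exercise arrays and 2 of 3 sedentary arrays, so the values lie close to the limit of measurement. The scaled log2 signal was -4.56, -4.87 and -4.14 on the exercise arrays and -4.82, -4.66 and -4.44 on the sedentary arrays. The groups overlapped, and the difference was 0.12 (SE 0.21, 95% interval -0.38 to 0.62). The interval leaves room for changes in either direction. For the other Nppa probe, 0 of 6 arrays were well above background.

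Nppb encodes the B-type natriuretic peptide, a hormone of the heart ventricles. Neither of its probes passed the filter. For the probe A_51_P426195, 0 of 6 arrays were well above background. The probe A_66_P125089 was well above background on sedentary array 2, with a scaled log2 signal of -4.15 (processed signal 20.9). On the other 5 arrays the same probe was between -6.81 and -6.18, with processed signals between 2.77 and 5.30. The single bright spot has no counterpart on the other sedentary arrays or in the other probe, and no difference is given for Nppb.

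Npr1 encodes guanylyl cyclase A, the receptor for the atrial and B-type peptides. Its probe (A_51_P182693) was dim but well above background on all 6 arrays. The scaled log2 signal was -4.16, -3.76 and -3.94 on the exercise arrays and -3.81, -4.65 and -3.93 on the sedentary arrays. The groups overlapped, with exercise array 2 the highest and sedentary array 2 the lowest of all. The difference was 0.17 (SE 0.24, 95% interval -0.41 to 0.76). Its sign turned without scaling (-0.30), within the shared strip (-0.15) and without sedentary array 2 (-0.09).

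Npr2 encodes guanylyl cyclase B, the receptor through which the C-type peptide raises cyclic GMP. Its brighter probe (A_55_P1963767) read 2.51, 2.50 and 2.53 on the exercise arrays and 2.38, 2.45 and 2.52 on the sedentary arrays, as scaled log2 signal. The groups overlapped, and the difference was 0.07 (SE 0.08, 95% interval -0.13 to 0.26). This is the narrowest interval among the tested members. The other probe, which was also well above background on all 6 arrays, gave 0.03 (SE 0.09). A change of Npr2 as large as that of Npr3 lay outside this interval in the scaled values, whereas without scaling the difference was -0.41.

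Npr3 encodes natriuretic peptide receptor C, which removes the peptides from the tissue. Its bright probe (A_55_P2807962) was well above background on all 6 arrays. The scaled log2 signal was -0.76, -0.61 and -0.57 on the exercise arrays and -0.02, -0.01 and 0.07 on the sedentary arrays. Both groups were tight, and every exercise array was below every sedentary array. The exercise mean was -0.65 ± 0.10 (SD, n = 3) and the sedentary mean 0.01 ± 0.05 (SD, n = 3). The difference was -0.66 (SE 0.09, 95% interval -0.88 to -0.44), a 1.58-fold lower signal with exercise.

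Npr3 kept its direction under each of the 20 alternatives, between -1.13 without scaling and -0.53 with normexp. Within the shared strip it was -0.63, and it did not pass the threshold there or with the strip as a block. It passed the threshold without sedentary array 1 (-0.68). With any other array left out, at most 1 of everything tested passed, and Npr3 missed the threshold (-0.70 to -0.60). Before scaling, its processed signal ran from 151 to 169 with exercise and from 306 to 402 without. A dim Npr3 probe (A_55_P2738529) was well above background on 1 sedentary array and on no exercise array, and was not tested. It read -5.96, -5.09 and -5.19 on the exercise arrays and -4.72, -4.57 and -4.76 on the sedentary arrays. The order of the groups was the same as in the bright probe.

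Prkg1 encodes cyclic GMP-dependent protein kinase I, the form found in smooth muscle, platelets and neurons. Its brighter probe (A_51_P440210) read 0.89, 1.46 and 1.36 on the exercise arrays and 0.87, 0.78 and 0.75 on the sedentary arrays. The groups were separated by a narrow gap, since exercise array 1 lay just above sedentary array 1. The difference was 0.44 (SE 0.16, 95% interval 0.05 to 0.83) and did not pass the threshold. The second probe (A_52_P553069), designed on another Prkg1 transcript, read -0.48, -0.31 and -0.27 against -0.67, -0.88 and -0.78. It gave 0.42 (SE 0.10, 95% interval 0.18 to 0.67), so both probes gave differences of similar size. The threshold was applied to the brighter probe, whose SE was larger. With the mean of the probes Prkg1 did not pass either.

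Prkg2 encodes the membrane-bound kinase II, known for its role in intestine and in growing cartilage. Its probe (A_51_P273433) read -1.70, -1.33 and -1.64 on the exercise arrays and -1.86, -1.81 and -2.22 on the sedentary arrays. The groups did not overlap, and the difference was 0.41 (SE 0.16, 95% interval 0.02 to 0.79), which did not pass the threshold. For the other Prkg2 probe, 0 of 6 arrays were well above background.

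The differences of both kinases depended on the scaling. The processed signal of the brighter Prkg1 probe was 477, 706 and 645 on the exercise arrays and 568, 636 and 647 on the sedentary arrays. That of Prkg2 was between 79.0 and 102 with exercise and between 82.2 and 106 without. These raw ranges overlapped, and without scaling the differences were -0.03 for Prkg1 and -0.07 for Prkg2. Under the other 19 alternatives they ranged from 0.28 to 0.61 for Prkg1 and from 0.25 to 0.49 for Prkg2. Both passed the threshold only with normexp background correction, as did Nppa, at 0.36 for Prkg1, 0.33 for Prkg2 and 0.30 for Nppa.

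**Figure D2:**
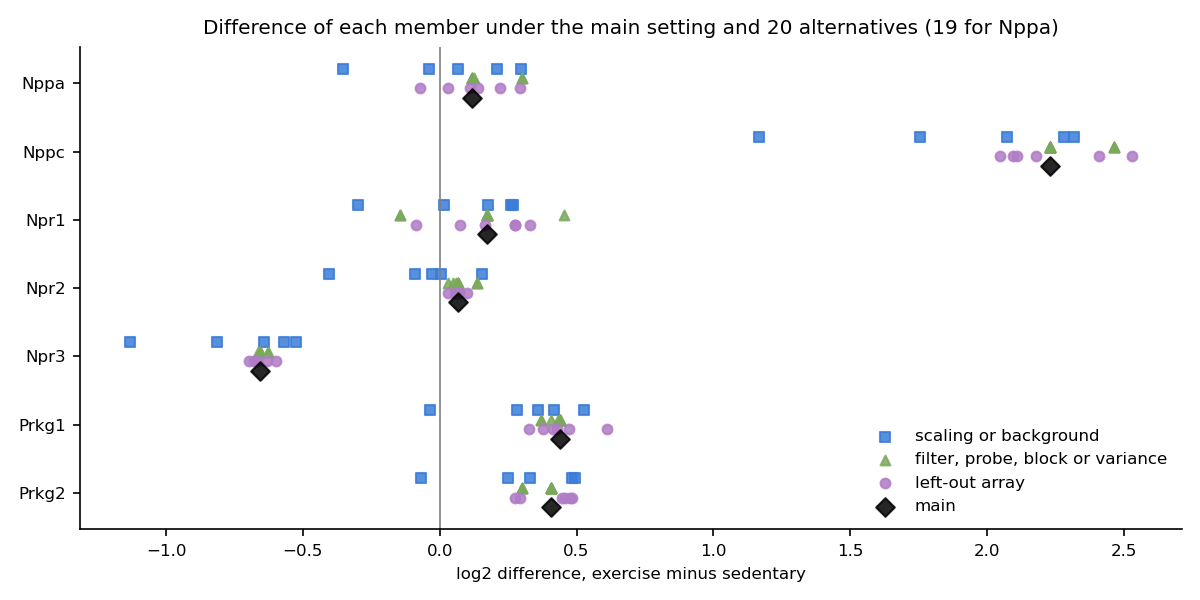
Difference between the groups for the 7 tested members under the main setting and its alternatives. The x axis is the log2 difference, exercise minus sedentary, diamonds are the main values, squares other scalings or background corrections, triangles other filters, probe choices, blocks or variance models, and circles the values with 1 array left out. All Nppc values lie between 1.17 and 2.53 and all Npr3 values between -1.13 and -0.53, whereas the other 5 members each have at least 1 value below 0 and others above it.

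The rest of the pathway was described from a list of 67 genes, of which 54 had a tested probe. By limma, 8 of the 54 passed as higher with exercise and 1 as lower, and 45 did not pass. Over everything tested, 17.6% passed, 11.5% as higher and 6.15% as lower. The share of the list that passed in either direction was close to that over everything tested. The median difference was 0.02, as over all genes and transcripts tested (0.03), and 29 of the 54 were above 0 against 52.8% of everything tested. Without scaling, 0 of the 54 passed as higher and 28 as lower, since that setting moved the median of all genes to -0.45.

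Among the peptide processing genes, 1 of 5 tested passed. This was Ostn, which encodes osteocrin (musclin), a peptide secreted by muscle and bone that binds the clearance receptor Npr3. Its scaled log2 signal was -1.14, -1.62 and -1.30 on the exercise arrays and -1.99, -2.57 and -2.05 on the sedentary arrays. In the scaled values all exercise arrays were above all sedentary arrays, and the signal rose by 0.85 (SE 0.20, limma adjusted p = 0.0383). Without scaling the groups overlapped, and the difference was 0.38 (limma adjusted p = 0.138). Within the shared strip the difference was 0.64. Pcsk6, a proprotein convertase and the brightest of the group, differed by 0.05 (limma adjusted p = 0.772). Furin, a convertase, and Mme, which encodes the peptide-degrading protease neprilysin, differed by -0.03 (limma adjusted p = 0.862) and -0.10 (limma adjusted p = 0.592). The other kept Mme probe gave 0.41 (SE 0.19), so the Mme probes differed in sign. The groups overlapped in each Mme probe. Corin, the protease that activates the atrial peptide in the heart, had no tested probe.

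Of the other guanylyl cyclases, 2 of 6 tested passed, both as higher. Gucy1b2, a subunit of the soluble type of enzyme, rose by 0.89 (SE 0.20, limma adjusted p = 0.0340), and Gucy2d, a membrane cyclase, rose by 0.83 (SE 0.13, limma adjusted p = 0.0234). Their exercise arrays lay above all sedentary arrays, at -0.79 to -0.56 against -1.92 to -1.17 for Gucy1b2 and at -2.00 to -1.71 against -2.85 to -2.51 for Gucy2d. The subunits of the main nitric oxide receptor did not pass, with -0.20 for Gucy1a1 (limma adjusted p = 0.423) and -0.16 for Gucy1b1 (limma adjusted p = 0.469). Within the shared strip the difference of Gucy1b2 was 0.48 and that of Gucy2d 0.79.

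Nitric oxide is the other input to cyclic GMP. Nos1, the neuronal nitric oxide synthase that skeletal muscle fibres also make, rose by 0.68 (SE 0.11, limma adjusted p = 0.0236). Its scaled log2 signal ran from -1.80 to -1.66 with exercise and from -2.60 to -2.28 without, and its other kept probe gave 0.35. Nos3, the endothelial enzyme, differed by -0.07 (limma adjusted p = 0.778), and Nos2, the inducible enzyme, by 0.27 (limma adjusted p = 0.160).

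Phosphodiesterases break cyclic GMP down, and 1 of the 11 tested passed. Pde5a, the cyclic GMP-specific enzyme of smooth muscle, read 2.64, 2.74 and 2.55 on the exercise arrays and 2.23, 2.00 and 1.85 on the sedentary arrays. The signal rose by 0.62 (SE 0.12, limma adjusted p = 0.0278), with no overlap between the groups, and by 0.41 within the shared strip. Pde2a, the brightest of the group, differed by 0.00 (SE 0.11, limma adjusted p = 0.989). Pde9a, which has been tied to natriuretic peptide signals in the heart, differed by -0.32 (limma adjusted p = 0.357). None of the 3 tested cyclic GMP-gated channel genes passed, with -0.07 for Cnga3, the brightest (limma adjusted p = 0.808). The other kept Cnga3 probe gave 0.27 (SE 0.09), with every exercise array above every sedentary array in the scaled values. The Cnga3 probes thus differed in sign.

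Among substrates and partners of the kinases, 1 of 11 passed as higher and 1 as lower. Ppp1r12a encodes the targeting subunit of myosin phosphatase, through which Prkg1 relaxes smooth muscle. It read 2.90, 2.79 and 2.95 on the exercise arrays and 3.55, 3.46 and 3.56 on the sedentary arrays, and fell by 0.64 (SE 0.09, limma adjusted p = 0.0234). Under all 20 alternatives its difference stayed below 0. Itpr1, a calcium release channel, rose by 0.64 (SE 0.14, limma adjusted p = 0.0343) in its brightest probe. Its other probes gave -0.31 and 0.06, and the mean of the probes gave 0.13 (limma adjusted p = 0.504), so the call held for that probe alone. Rhoa, the brightest of the group, differed by -0.01 (limma adjusted p = 0.930), and Vasp, a classic substrate of the kinase, by 0.33 (limma adjusted p = 0.0839).

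Of 9 tested transcription factors known to act on the peptide genes, 2 passed as higher. Srf, the serum response factor, rose by 0.44 (SE 0.10, limma adjusted p = 0.0330) and Tead1 by 0.46 (SE 0.12, limma adjusted p = 0.0486) in the scaled values, and both were near 0 without scaling (-0.03 and -0.01). Mef2c, the brightest of the group, differed by 0.30 (limma adjusted p = 0.121). Gata4, a heart factor that activates Nppa and Nppb, had the widest difference of the whole list, -2.07 (SE 0.56, limma adjusted p = 0.0520), which missed the threshold. The study's own analysis of these arrays lists Gata4 among its genes called lower with exercise. The tested Gata4 probe was well above background on 2 of 3 exercise arrays, with processed signals of 13.5, 21.4 and 37.1. The size of the Gata4 difference thus rests partly on values close to the limit of measurement. For the other Gata4 probe, 0 of 6 arrays were well above background. None of 6 tested genes of fat breakdown and heat production that respond to cyclic GMP passed, and Pnpla2, the brightest of them, differed by 0.04 (limma adjusted p = 0.866).

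The 9 calls in the pathway list came from the 6 arrays together. When any array other than sedentary array 1 was left out, at most 1 of everything tested passed. None of the 9 calls held there, although the directions of all 9 stayed the same. Over all 6 omissions, that of sedentary array 1 included, Ostn ranged from 0.67 to 0.98, Pde5a from 0.53 to 0.72 and Ppp1r12a from -0.68 to -0.60. The sizes of the rises depended on the scaling. Without scaling the differences were 0.42 for Gucy1b2, 0.35 for Gucy2d, 0.21 for Nos1, 0.14 for Pde5a and 0.17 for Itpr1. None of these passed in that setting. None of the 9 passed with the strip as a block or against sedentary array 1 alone.

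**Figure D3:**
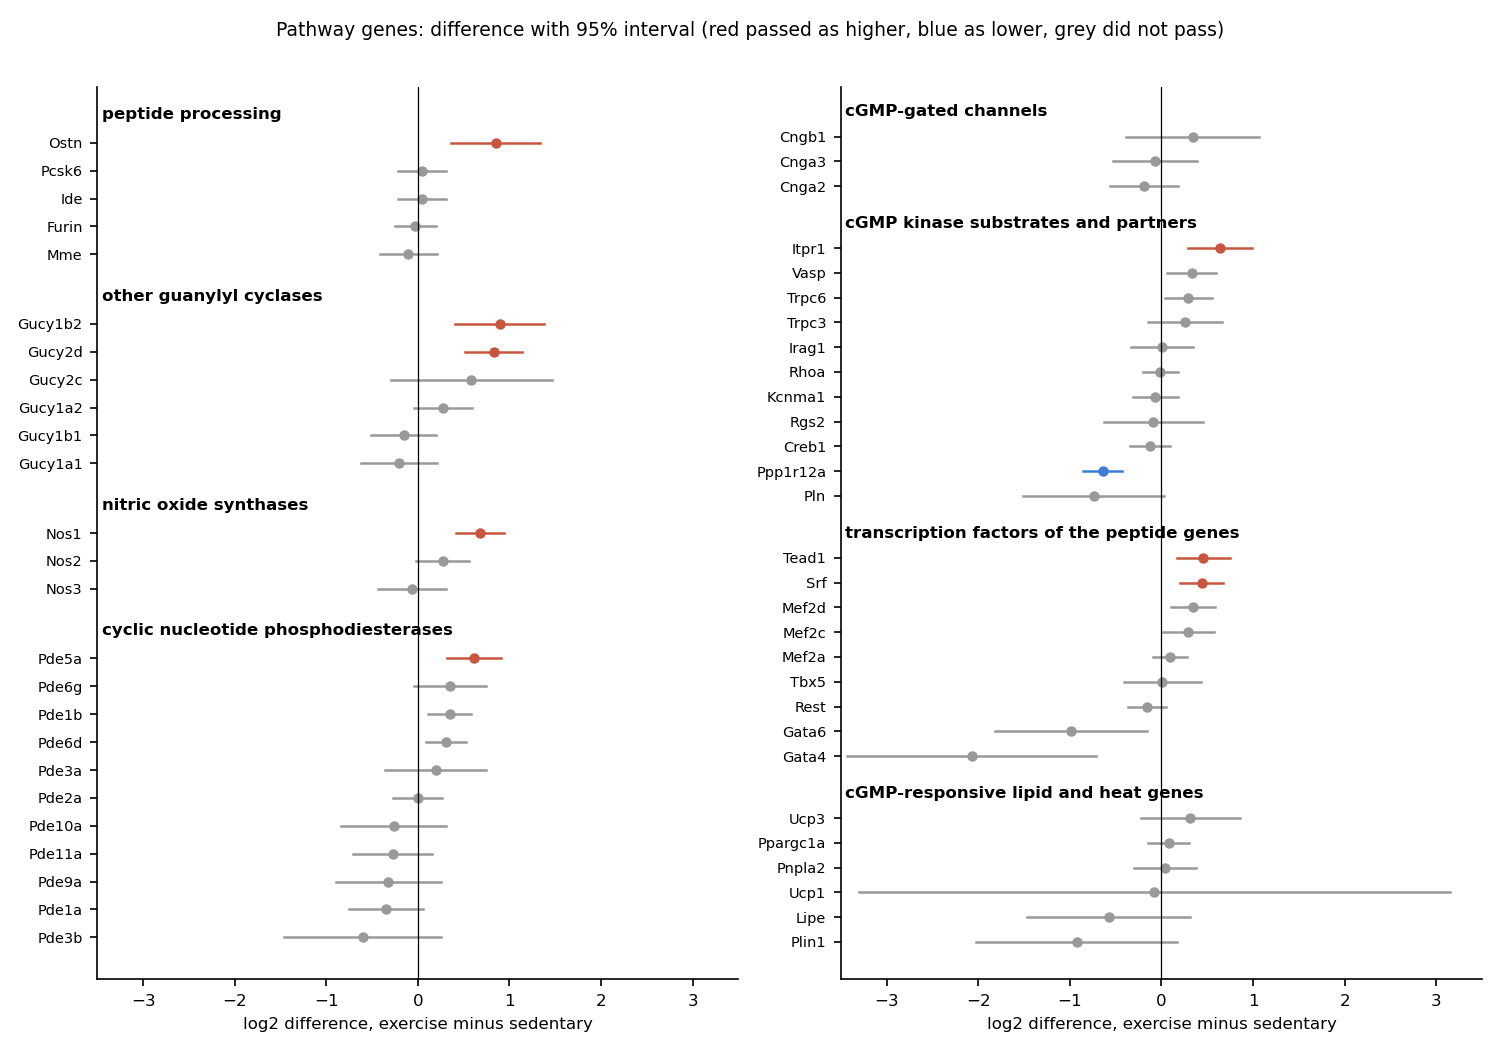
Difference of the 54 tested pathway genes, by group of the list. The x axis is the log2 difference, exercise minus sedentary, points are the main values and lines their 95% intervals (those beyond the axis end at its edge), red marks the 8 genes that passed as higher, blue the 1 that passed as lower and grey the other 45. Passing genes appear in 6 of the 8 groups, at most 2 to a group.

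The cells that hold these transcripts were not separated, and in whole muscle fewer cells of a type cannot be told apart from less RNA per cell. The marker lists were therefore read beside the members. Of 8 skeletal muscle markers, 7 passed as higher with exercise, with a median difference of 0.88, and their summed level was 5627 to 6237 times the array's 75th percentile with exercise against 2894 to 4018 in the sedentary group. They include Actn3 (1.38) and Acta1 (0.93), and 7 of the 8 stayed above 0 without scaling. The paper marks Actn3 as specific to fast-twitch muscle, and the list holds no marker of slow-twitch fibres. A rise of RNA from all muscle fibres therefore cannot be told apart here from a change of fibre type. The labelled tissue was thus represented by bright muscle markers on every array. The part of this shift in the differences of Nppc and the kinases was not tested.

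Smooth muscle and vessel markers bear on Npr3, Prkg1 and Pde5a, which vessels are known to express. Among 7 smooth muscle markers, Acta2 passed as higher (1.32), and Myh11 (-0.95) and Lmod1 (-0.76) as lower. Lmod1 was well above background on only 1 of 3 exercise arrays, so its values there lie close to the limit of measurement. Acta2 is also known from developing or regenerating striated muscle, whereas Myh11 is the myosin that defines smooth muscle. Which cells or transcripts gave the Acta2 signal was not tested. The summed level of the list, to which Acta2 contributed most, was 370 to 440 with exercise against 182 to 227. The median difference of the list was -0.76, which is the value of Lmod1. Of 8 endothelial markers none passed, with a median of -0.02 and a summed level of 85.7 to 115 against 81.2 to 91.0. The endothelial median was -0.50 without scaling, close to the shift of the median of all genes. Their part in the lower Npr3 signal was not tested.

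Adipocytes are another site of Npr3. Of 7 adipocyte markers, 1 passed as higher, Lep (0.35). The other 6 were below 0 and did not pass, including Adipoq at -0.96 (SE 0.46) and Plin1 at -0.92 (SE 0.45). The median was -0.92, and the summed level was 232 to 607 with exercise against 407 to 529, so the groups overlapped. Adipocyte content of the samples was not tested as a part of the Npr3 difference.

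Heart muscle makes most of the circulating peptides. Of 7 cardiac markers, 5 were tested and none passed, with a median of -0.41 and a summed level of 7.35 to 13.2 with exercise against 13.9 to 33.5. Ryr2 and Myl7 had no tested probe, and Tnnt2 (-1.89, limma adjusted p = 0.0541) and Myl4 (-1.37, limma adjusted p = 0.0572) were the lowest of the list. Both genes are also known from immature and denervated skeletal muscle. None of 7 fibroblast and none of 6 macrophage markers passed, with medians of -0.02 and -0.03.

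**Figure D4:**
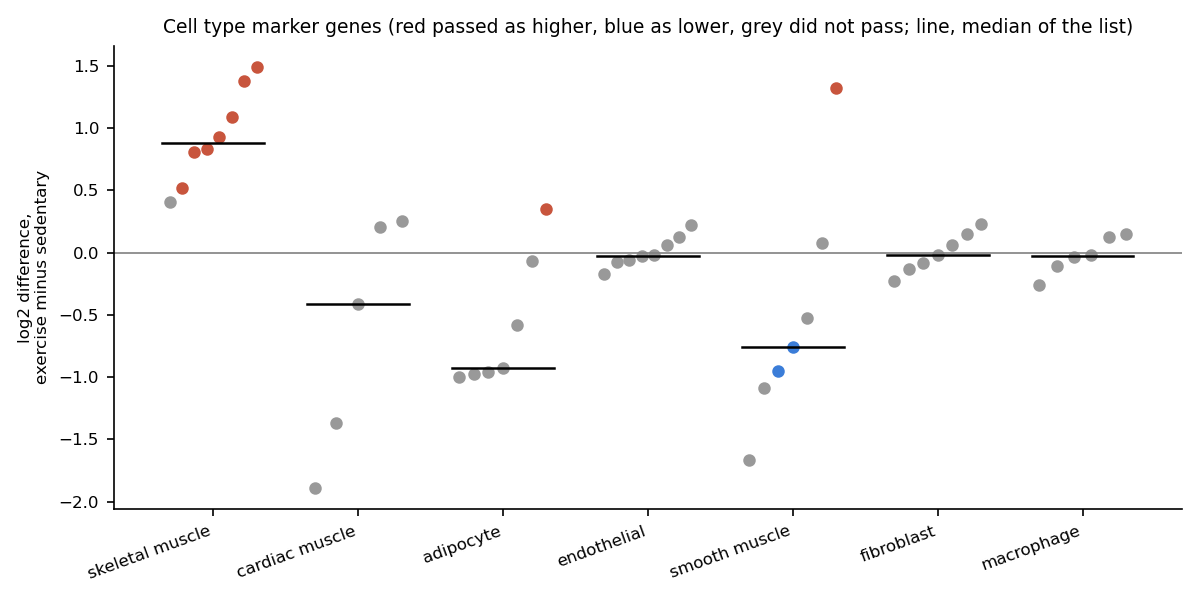
Difference of the tested marker genes of 7 cell types. The y axis is the log2 difference, exercise minus sedentary, each point is 1 gene, the line is the median of the list, red marks genes that passed as higher, blue genes that passed as lower and grey those that did not pass. The skeletal muscle list has its median at 0.88 and the endothelial, fibroblast and macrophage lists have theirs within 0.03 of 0.

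The genes with a pattern most like that of Nppc were found by centring each gene on its mean over the 6 arrays and taking the root mean square difference from Nppc over those arrays. Among 22284 genes and transcripts well above background on every array, the nearest were Dmkn (0.41), Nmrk2 (0.45), Gm13029 (0.45), Fos (0.47) and Mir1a-1hg (0.48), as root mean square differences on the log2 scale. Dmkn encodes dermokine, a secreted protein of skin, and Nmrk2 encodes a nicotinamide riboside kinase of muscle. Fos is an immediate early transcription factor, and Mir1a-1hg is a host gene of the muscle microRNA miR-1a. Gm13029 is a predicted gene.

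The 5 genes differed between the groups by 1.48 to 2.51, as their choice implies. Fos read 4.41, 4.63 and 4.41 on the exercise arrays and 2.99, 1.69 and 2.80 on the sedentary arrays. Nmrk2 read 5.67, 5.19 and 6.36 against 3.60, 2.91 and 3.27. With 6 arrays in groups of 3, a small distance reflects mostly the difference between the groups, and nothing about a shared role follows from it.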

How the data were processed

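Agilent SurePrint G3 mouse arrays (1 colour) of 6 quadriceps samples, 3 per group, were analysed. Per the file headers, the authors read each array with Feature Extraction 12.1.0.3, whose processed signal is an intensity on a linear scale with the background subtracted and spatial trends removed, with flags for spots well above background. A second deposited file, an intensity table for all arrays, equals the processed signal times 1 factor per array (1.33 to 1.88), and its making is not stated. No scaling between arrays is given in the sources used here.

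Control and outlier spots were left out, spots of a probe were averaged, log2 was taken and each array's 75th percentile subtracted. A probe was kept if at least 3 of the 6 arrays had it well above background, and a gene was represented by its probe with the highest mean. Names came from RefSeq (GRCm38.p6) through transcript accessions, which matched 34566 of 56605 probes. The array was designed on mm9, so no coordinates were transferred. Probes with a missing value (22) were left out. The test was limma (version 3.58.1, with R 4.3.3), two-sided, with lmFit followed by eBayes. Its p-values were adjusted by Benjamini-Hochberg over everything tested, with a threshold of 0.05, and the procedure was tested on simulated data. The study's additional fold change minimum was not applied. The number of arrays limits the precision.

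The members, pathway genes, markers, tests and alternatives were chosen with earlier results of these data known. The genes named were all members, every pathway gene that passed, the brightest gene of each pathway group and the 5 genes nearest to the member with the largest difference. Furin, Mme, Corin, Gucy1b1, Nos2, Pde9a, Vasp and Gata4 were added to describe their groups, after their values were seen. The pathway list held peptide processing genes, other guanylyl cyclases, nitric oxide synthases, phosphodiesterases, cyclic GMP-gated channels, kinase substrates and partners, transcription factors of the peptide genes, and lipid and heat genes. The result of 1 marker list is not reported here.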

Additional observations from a re-analysis of the deposited data

How the results depend on the processing

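Nppc kept its direction under 20 of 20 alternatives and so did Npr3, whereas the other 5 tested members changed sign under at least 1. Over everything tested, 2867 passed as higher and 1539 as lower. The counts were 1865 higher with quantile normalization, 872 lower with the array median subtracted, 617 higher and 11280 lower without scaling, and 1172 higher and 3201 lower in the deposited table. They were 6135 higher with normexp, 9737 higher without a filter on dim probes, and 5117 higher and 3639 lower with array weights. The higher share of the calls was 57.8% with quantile normalization, 75.5% with the median, 5.19% without scaling, 26.8% in the deposited table, 75.2% with normexp and 83.5% without a filter. Of the members, 4 passed as higher with normexp. Of the pathway genes, 0 passed as higher and 28 as lower without scaling, 3 and 2 in the deposited table, 14 and 4 with array weights. There were 13 higher with normexp, 13 higher without a filter, 2 lower with the median subtracted and 2 lower with trend and robust variance. Srf (-0.032) and Tead1 (-0.014) changed sign without scaling. With the slide's strip as a block, limma called 0 higher and 3 lower in all, 0 members and 0 pathway genes in either direction, and 4828 had an unadjusted p under 0.05. With the sedentary array of the same strip only, where the lone array is assumed to vary like the exercise group, it called 0 in every count, and 4062 had an unadjusted p under 0.05. Leaving out 1 array gave 0 to 3468 higher and 0 to 2063 lower in all, 0 to 1 and 0 to 1 among the members and 0 to 8 and 0 to 4 among the pathway genes, where each highest count came without sedentary array 1. Without sedentary array 1, 4 pathway genes passed as lower. Leaving out any of the other arrays called at most 1 of everything tested. It left 6680 to 8146 genes and transcripts with an unadjusted p under 0.05. With the replicate number as a block, 0 genes, 0 members and 0 pathway genes passed in either direction, and 8582 had an unadjusted p under 0.05. The labels do not say whether the numbers pair the samples. Same-numbered arrays deviated together by correlations of 0.02, 0.08 and 0.04, and not every array correlated best with its own number. With 3 arrays per group, these correlations cannot decide whether the samples were paired. Signal over background limits Nppa, Nppb and the dim probes, and normexp and the filter on dim probes act most on such signals.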
